A study of Mus musculus with 4 samples.

Results

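Direct targets of p53 are genes that the transcription factor p53, encoded by Trp53 in the mouse, binds and activates after DNA damage and other stress. Their transcripts were measured in primary neurospheres grown from the subventricular zone of C57BL/6 mice aged 9 to 12 weeks. Of 37 named targets, 34 had an array probe set annotated to that gene alone, out of 19938 genes in the table, and 33 of these were bright enough to test. Trp53, Cdkn1a and Gdf15 had no such probe set and were not analysed here.

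The treated cells (2 arrays) were differentiated for 10 h in the presence of 100 nM olaparib, with DMSO as solvent at 0.01%. Olaparib blocks the poly(ADP-ribose) polymerases PARP1 and PARP2 of DNA repair. The control cells (2 arrays) received the same 0.01% DMSO without the drug. All cells of both groups had received non-targeting siRNAs and the viral vector pCLIG-Pax6, carrying the neurogenic transcription factor Pax6, and were cultured for 36 h as spheres and then plated without growth factors for 10 h. The second array of each group is labelled a biological replicate, but the labels do not say whether cells of several mice were pooled, so the errors measure the spread between these cultures. Of the cell type markers fixed for the check, those of neural stem cells and astrocytes had a median log2 value of 10.1 over 11 genes, while 9 immune and microglial genes (6.46) and 6 endothelial genes (6.40) lay near 18 genes of unrelated tissues (6.41). The other medians were 7.22 over 7 oligodendrocyte lineage genes, 7.04 over 5 ependymal, 6.68 over 9 neuroblast and 6.46 over 6 fibroblast and mural genes.

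In unstressed cells p53 is held at a low level by the ubiquitin ligase Mdm2, whose own gene p53 activates. Kinases that sense broken or stalled DNA free p53 from this loop, and its targets then slow the cell cycle, lower the threshold for apoptosis, adjust metabolism and supply repair enzymes. In the subventricular zone p53 is known to restrain the self-renewal of neural stem cells. The comparison asked which of these targets change in level under PARP inhibition during early neuronal differentiation.

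Of the 33 targets tested, 10 rose with olaparib, 0 fell and 23 did not pass an adjusted p of 0.05 in limma. Over all 13956 genes tested, 2.84% were higher and 3.37% lower at that threshold. An unadjusted p under 0.05 was reached by 15 targets, all with a positive change, beside 9.18% of genes higher and 9.88% lower. The targets that rose were Phlda3, Ercc5, Plk2, Tnfrsf10b, Gtse1, Perp, Polk, Psrc1, Mdm2 and Sesn2, with changes between 0.41 and 0.88 on the log2 scale, or 1.33-fold to 1.84-fold. The median change was 0.18 over all 34 targets, against 0.0013 over all genes tested. In 20 of the 34 targets both olaparib arrays lay above both DMSO arrays, which was true of 21.3% of all 19938 genes, and in 2 targets both lay below, as in 20.2% of all genes. A change in the number of cells of a type and a change in RNA per cell cannot be told apart in such bulk samples.

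With 2 residual degrees of freedom, the error of each target comes mostly from a prior that limma shares over the fitted rows. A joint fit of 21704 probe sets adds those naming several genes or none and the dimmer probe sets of genes that have several. In it 0 targets passed, and the adjusted p of the 10 lay between 0.0653 and 0.274 in limma, with the same changes.

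**Figure D1:**
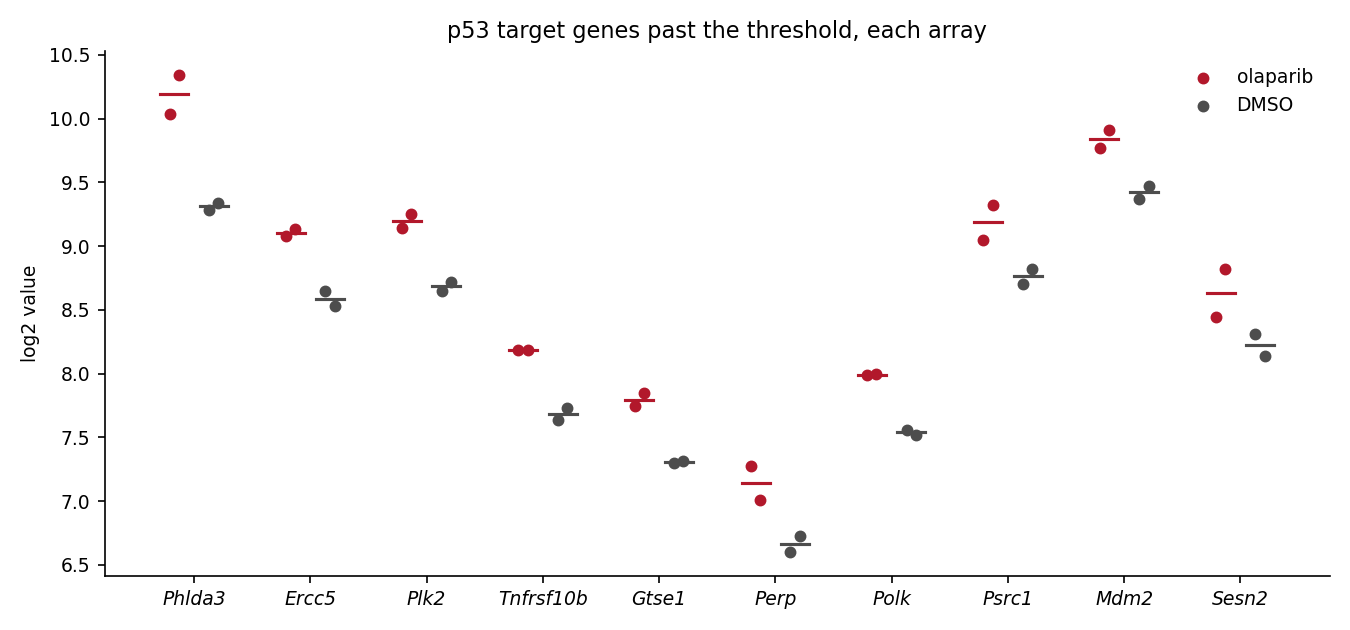
Log2 value on each array (points) and group mean (bars) for the 10 p53 targets past the threshold, olaparib in red and DMSO in grey, ordered by change. In each gene the 2 olaparib points lie above the 2 DMSO points, with the widest gap for Phlda3 (0.70) and the narrowest for Sesn2 (0.14).

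The promoter windows of the target with the largest change and of the 3 risen targets whose window held a match to the p53 half-site are printed because p53 acts on its targets through such sites. The windows are RefSeq sequence of GRCm38.p6, from 250 bases before to 50 bases after an annotated start, and 30 of the 37 targets had at least 1. The half-site, the p53 consensus of 10 bases, was written as 3 purines, a C, 2 bases that are A or T, a G and 3 pyrimidines, and since it is its own reverse complement a match counts for both strands. Capitals mark the half-site, and no other motif was searched. Phlda3 is at chr1:135765835-135766134 on the plus strand, Mdm2 at chr10:117710709-117711008 on the minus strand, Gtse1 at chr15:85859696-85859995 on the plus strand and Polk at chr13:96519138-96519437 on the minus strand. The windows of Gtse1 and Polk are each 1 of 2 annotated for the gene, and in both genes the other window held 0 half-sites. For Polk the printed window is that of the downstream start, while the upstream one lies at chr13:96542530-96542829.
Phlda3: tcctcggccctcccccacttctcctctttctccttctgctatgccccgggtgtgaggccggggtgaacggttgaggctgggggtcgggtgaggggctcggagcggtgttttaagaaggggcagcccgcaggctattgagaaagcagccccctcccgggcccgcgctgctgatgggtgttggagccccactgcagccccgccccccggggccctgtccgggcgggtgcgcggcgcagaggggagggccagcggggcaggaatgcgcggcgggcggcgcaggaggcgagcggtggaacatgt
Mdm2: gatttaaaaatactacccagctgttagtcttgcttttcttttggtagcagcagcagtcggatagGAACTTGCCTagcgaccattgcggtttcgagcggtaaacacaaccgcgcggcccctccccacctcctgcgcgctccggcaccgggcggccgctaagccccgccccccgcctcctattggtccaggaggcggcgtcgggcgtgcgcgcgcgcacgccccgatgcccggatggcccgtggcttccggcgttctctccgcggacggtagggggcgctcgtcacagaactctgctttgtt
Gtse1: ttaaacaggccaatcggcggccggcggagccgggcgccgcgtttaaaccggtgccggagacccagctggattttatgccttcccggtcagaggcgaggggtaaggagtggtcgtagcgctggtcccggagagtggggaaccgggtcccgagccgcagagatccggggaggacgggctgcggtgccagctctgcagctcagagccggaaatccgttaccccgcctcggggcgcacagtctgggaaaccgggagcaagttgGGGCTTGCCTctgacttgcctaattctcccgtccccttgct
Polk: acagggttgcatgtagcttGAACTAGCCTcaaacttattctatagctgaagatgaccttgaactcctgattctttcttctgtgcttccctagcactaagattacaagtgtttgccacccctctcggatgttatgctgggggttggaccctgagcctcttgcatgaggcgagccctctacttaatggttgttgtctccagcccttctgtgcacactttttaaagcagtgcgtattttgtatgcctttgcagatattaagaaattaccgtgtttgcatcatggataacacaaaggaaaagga

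Half-sites were found in 3 of the 11 windows of risen targets (27.3%), in 8 of the 28 windows of the other targets (28.6%) and in 8.36% of all 32851 windows. Counted by gene, they were found in 3 of 8 risen targets with a window (37.5%) and 7 of 22 other targets (31.8%). Over all genes with a window the share was 9.55%. The risen targets Perp and Tnfrsf10b had no window. Windows of a gene can overlap and then share a site, as the 2 windows of Aen do. The window of Phlda3 held no complete half-site, but its last 8 bases match the first 8 letters of one, as did the ends of 0.137% of all windows. A pair of half-sites with up to 13 bases between them occurred in 24 of all windows, and among the targets in 1, that of the upstream start of Cdkn1a. That match, printed because Cdkn1a encodes the best known effector of p53 although its level was not analysed here, lies at chr17:29090906-29090937 on the plus strand and begins 73 bases before that start. In the window its second half-site is followed directly by tgacatgttc, which departs from the half-site pattern only in its first base. The search did not count that closer pair, so the printed stretch is the match to the strict pattern alone. Stretches that depart in 1 base were not counted in any window, and Cdkn1a is not alone in having one beside a half-site. In the printed window of Gtse1, gagcaagttg directly before the half-site departs only in its last base. There tgacttgcct, after 1 base between, departs only in its first. In Ccng1, agacctgccc directly before the half-site also departs in 1 base.
Cdkn1a: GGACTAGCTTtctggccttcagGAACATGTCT

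Among the genes of the p53 family and its feedback loop, Mdm2 rose and Trp73 did not pass. Mdm2 read 9.77 and 9.91 on the olaparib arrays, against 9.37 and 9.47 on the DMSO arrays. The groups did not overlap, and the change was 0.42 (SE 0.11, adjusted p = 0.0310 in limma). Mdm2 did not pass under median centring, nor when either DMSO array was left out, where its adjusted p reached 0.616. Trp73, a p53 relative with roles in neural stem cells, had 6.61 and 6.44 with olaparib and 6.46 and 6.50 with DMSO. Its groups overlapped at a level near that of the unrelated tissue genes, whose means ran from 6.17 to 7.01.

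Of 6 cell cycle targets 3 rose, Plk2, Gtse1 and Psrc1, and 3 did not pass, Ccng1, Plk3 and Btg2. Plk2, a polo-like kinase of centriole duplication and of synapses, had 9.14 and 9.25 with olaparib and 8.65 and 8.72 with DMSO. The olaparib arrays lay 0.11 apart and the DMSO arrays 0.07, and the change was 0.51 (SE 0.11, adjusted p = 0.00534 in limma). Gtse1, a microtubule-binding protein of the G2 phase that also restrains p53, read 7.75 and 7.85 with olaparib, against 7.30 and 7.32 with DMSO. It rose by 0.49 (SE 0.08, adjusted p = 0.000841 in limma), a 1.40-fold change. Psrc1, a spindle protein, read 9.05 and 9.33 with olaparib, against 8.70 and 8.82 with DMSO. Its olaparib arrays were further apart than those of Plk2 or Gtse1, and the change was 0.43 (SE 0.11, adjusted p = 0.0290 in limma). Like Mdm2, it did not pass under median centring or without either DMSO array, nor without a filter on dim genes.

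Ccng1, which encodes cyclin G1, an early p53 target that acts with a phosphatase on Mdm2, was the brightest target measured. It had 11.63 and 11.68 with olaparib and 11.30 and 11.48 with DMSO, a change of 0.26 with a 95% interval from 0.01 to 0.52 (adjusted p = 0.241 in limma). The groups did not overlap, but the gap of 0.15 was smaller than the 0.17 between the DMSO arrays. Btg2, an antiproliferative gene that marks neurogenic divisions, read 8.62 and 8.71 with olaparib, against 8.69 and 8.67 with DMSO. Its olaparib arrays lay on either side of the DMSO arrays, and the interval of its change ran from -0.23 to 0.20. Plk3, a relative of Plk2, changed by 0.0048 at a mean log2 value of 6.50, where the unrelated tissue genes also lie.

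The apoptosis and survival group was the one with the most members, 11, of which 3 rose, Phlda3, Tnfrsf10b and Perp, and 8 did not pass. All 11 changes were positive, with a median of 0.27, and a change above 0 was found in 50.5% of all genes tested. Phlda3 encodes a pleckstrin homology protein that keeps the survival kinase AKT from the membrane. It had 10.04 and 10.35 with olaparib, and 9.28 and 9.34 with DMSO. Both olaparib arrays were high, replicate 2 more than replicate 1, and the change of 0.88 (SE 0.12, adjusted p = 0.000135 in limma) ranked 5th among the rises of all genes tested.

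Tnfrsf10b, the mouse receptor for the death ligand TRAIL, read 8.19 on both olaparib arrays, against 7.63 and 7.73 with DMSO. It rose by 0.51 (SE 0.09, adjusted p = 0.00133 in limma), and without DMSO replicate 1 it did not pass. Perp, a membrane protein of desmosomes and an apoptosis effector, had 7.28 and 7.01 with olaparib and 6.60 and 6.72 with DMSO. It rose by 0.48 (SE 0.09, adjusted p = 0.00220 in limma), but its DMSO mean of 6.66 lies within the range of the unrelated tissue genes, so the size of the change is less certain. In contrast to the other 9 risen targets, olaparib replicate 1 was the higher array of its group.

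Fas, the receptor of Fas ligand, read 8.80 and 8.97 with olaparib, against 8.57 and 8.67 with DMSO. The groups did not overlap, with a change of 0.27 (interval 0.05 to 0.49, adjusted p = 0.157 in limma). Apaf1, the scaffold of the apoptosome, had 7.64 and 7.67 with olaparib and 7.53 and 7.42 with DMSO, also without overlap, and changed by 0.18 (adjusted p = 0.226). The receptor gene Eda2r changed by 0.31 (adjusted p = 0.0870) and Trp53inp1, a stress protein of the nucleus and of autophagy, by 0.28 (adjusted p = 0.182). Both had separated groups. Pidd1, which activates caspase-2, changed by 0.15, the membrane protein gene Ei24 by 0.13, the nuclease gene Aen by 0.11 and Cyfip2, a subunit of the WAVE actin complex, by 0.07.

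**Figure D2:**
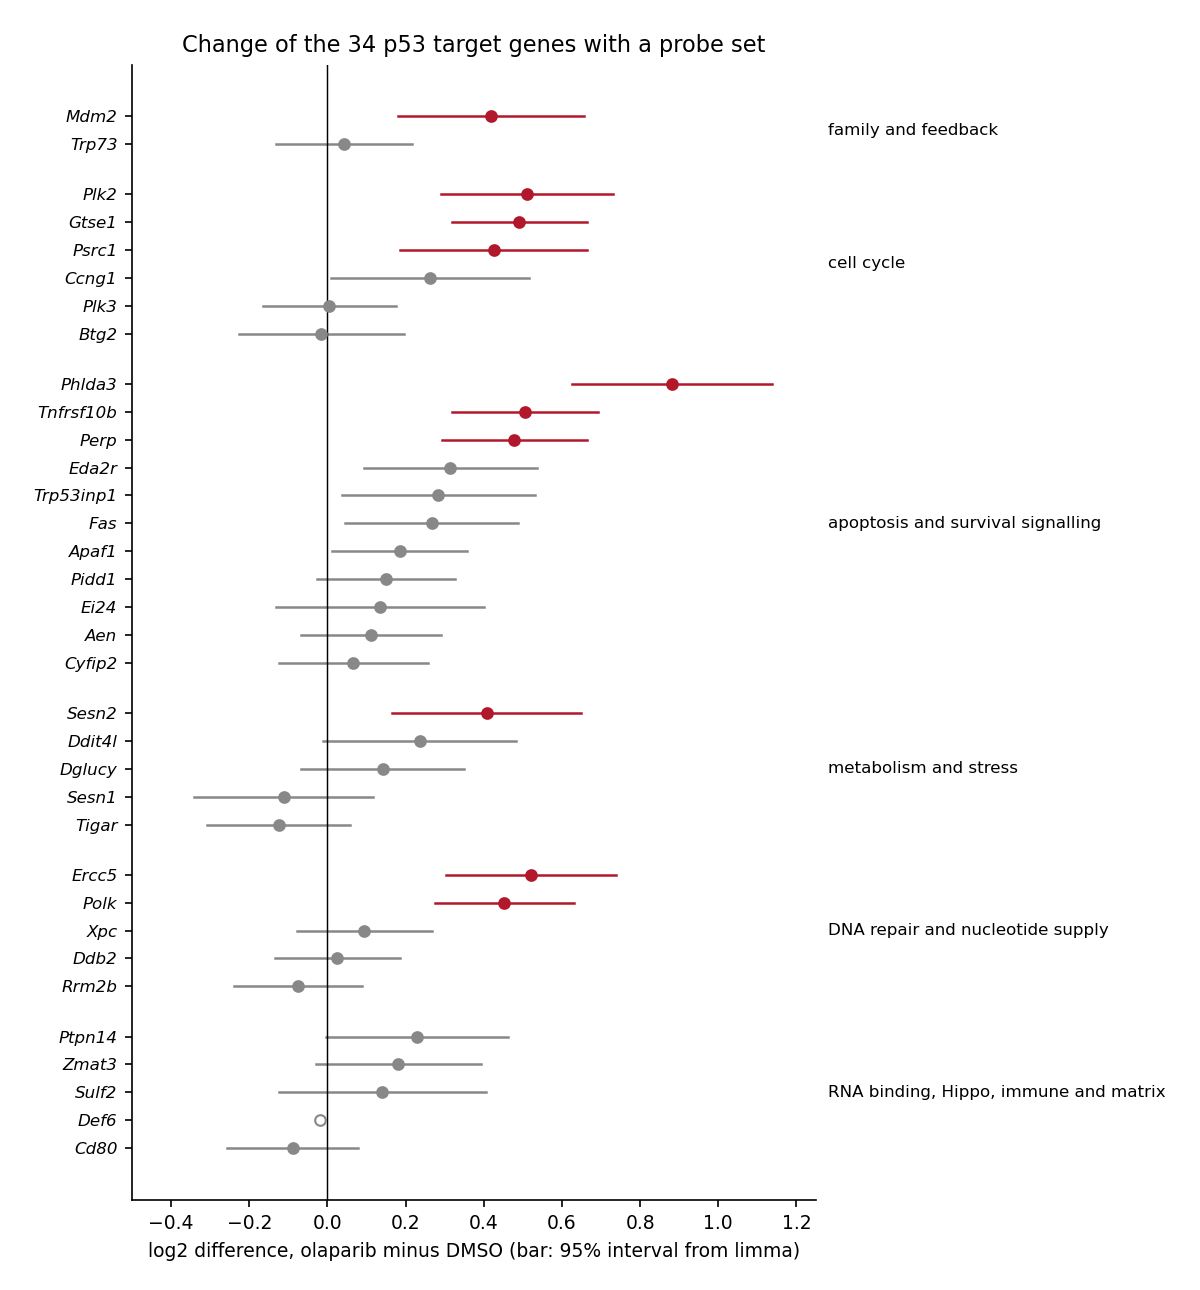
Log2 difference (olaparib minus DMSO, horizontal axis) of the 34 p53 targets with a probe set, by group of function and sorted by change, with 95% intervals from limma. Red marks the 10 past the threshold, the open circle is Def6, which was too dim to test, and all 11 points of the apoptosis and survival group lie right of 0.

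Of 5 targets in metabolism and stress, Sesn2 rose and 4 did not pass. Sesn2 encodes a leucine sensor that inhibits mTORC1. It read 8.44 and 8.82 with olaparib, against 8.31 and 8.14 with DMSO. The groups were separated by the narrowest gap of the 10, and the change was 0.41 (SE 0.12, adjusted p = 0.0394 in limma). It did not pass without olaparib replicate 2, where the change was 0.22, nor without either DMSO array, under median centring or without a filter on dim genes. Its relative Sesn1 changed by -0.11, and its olaparib arrays were 0.22 apart. Ddit4l, another inhibitor of mTORC1, changed by 0.24 with separated groups (adjusted p = 0.290), Dglucy, which encodes D-glutamate cyclase, by 0.14, and Tigar, a phosphatase that slows glycolysis, by -0.13 at a mean of 6.58.

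Of 5 targets in DNA repair and nucleotide supply, Polk and Ercc5 rose and 3 did not pass. Polk, the translesion polymerase kappa, read 7.99 on both olaparib arrays, against 7.56 and 7.52 with DMSO. It rose by 0.45 (SE 0.09, adjusted p = 0.00239 in limma), with the smallest spread between DMSO arrays of the 10 apart from Gtse1. Ercc5, the endonuclease XPG of nucleotide excision repair, had 9.08 and 9.13 with olaparib and 8.64 and 8.53 with DMSO. It rose by 0.52 (SE 0.10, adjusted p = 0.00421 in limma), and as with Plk2 its call was lost when either DMSO array was left out. Polk lost its call without DMSO replicate 2.

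The damage sensors of the same repair pathway, Xpc and Ddb2, did not pass. Xpc read 7.51 and 7.36 with olaparib, against 7.30 and 7.38 with DMSO, and the groups overlapped. Its change of 0.09 had an interval from -0.08 to 0.27. Ddb2 had 6.80 and 6.74 with olaparib and 6.72 and 6.76 with DMSO, at a level within the range of the unrelated tissue genes. Rrm2b, the p53-inducible subunit of ribonucleotide reductase, was 1 of the 2 targets with both olaparib arrays below both DMSO arrays (7.31 and 7.33, against 7.38 and 7.41). Its change was -0.07 (adjusted p = 0.711 in limma).

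None of the 4 tested targets among RNA-binding, Hippo, immune and matrix genes passed. Ptpn14, a phosphatase that limits YAP, changed by 0.23 (adjusted p = 0.272 in limma) and Zmat3, an RNA-binding regulator of splicing, by 0.18 (adjusted p = 0.356), both with separated groups. Sulf2, which trims sulfate from heparan sulfate, changed by 0.14. The costimulatory gene Cd80 had separated groups with olaparib lower, a change of -0.09, and its second probe set changed by 0.05. Cd80 and Def6, both known from immune cells, had means of 6.56 and 6.41, and Def6 was below the level set for testing.

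A difference between these groups of function was not tested, and their medians are given as a description. The median change was 0.34 over 6 cell cycle targets, and between 0.26 and 0.42 when 1 array was left out. Over 11 apoptosis and survival targets it was 0.27, and between 0.20 and 0.34. Over 5 metabolism targets the median was 0.14, and between -0.01 and 0.25, over 5 repair targets 0.09, and between 0.02 and 0.17, and over the 4 tested RNA-binding, Hippo, immune and matrix targets 0.16, and between 0.02 and 0.30. Within each of these 5 groups the changes of the members spread over 0.32 or more, from Cd80 to Ptpn14 in the narrowest.

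The 2 olaparib arrays differed among themselves more than the DMSO arrays. Over the 34 targets the median SD was 0.093 with olaparib and 0.057 with DMSO, as against 0.077 and 0.048 over all genes tested. Olaparib replicate 2 was the higher olaparib array in 24 of the 34 targets and in 9 of the 10 that rose. Without olaparib replicate 1 the median change of the targets was 0.29. When any 1 array was left out, each of the 10 risen targets kept a positive change, the lowest being 0.22 for Sesn2. Calls of targets were both lost and gained in these fits. The number of genes passing over the whole table shifted widely between them as well. Whether calls of targets shifted more or less than those of other genes was not tested.

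**Figure D3:**
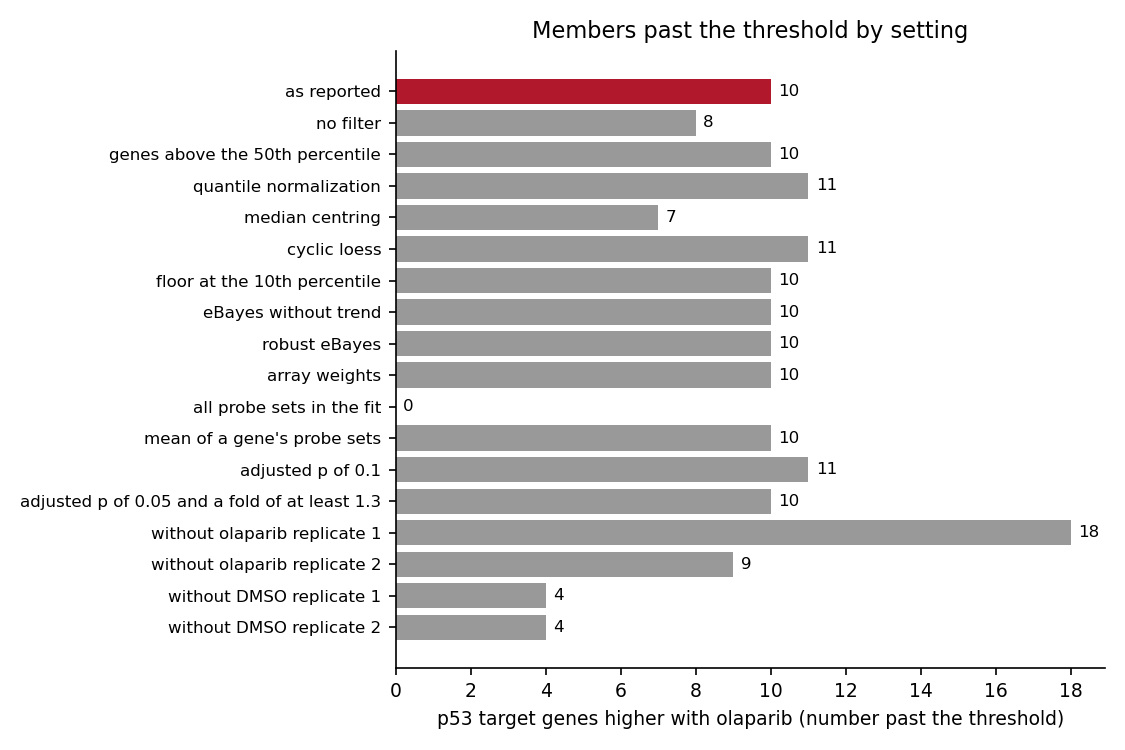
Number of p53 targets higher with olaparib and past the threshold (horizontal axis) as reported (red) and under each alternative setting (grey). The count is 10 as reported and 0 with all probe sets in the fit. In the fits without 1 array the counts over all genes shifted as well.

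Other genes of the pathway were taken from 4 lists. Of 27 further p53 targets, 7 rose, 0 fell and 20 did not pass, with a median change of 0.19, beside the 2.84% of all genes that were higher. At an unadjusted p under 0.05 there were 11 higher and 0 lower. Pmaip1, the BH3-only protein NOXA, read 7.66 and 7.71 with olaparib, against 7.10 and 7.06 with DMSO, and rose by 0.60 (SE 0.08). The thiamine transporter gene Slc19a2 rose by 0.48, the proapoptotic gene Siva1 by 0.46 and Pltp, a phospholipid transfer protein, by 0.43, and their adjusted p in limma lay between 0.00254 and 0.00973. Siva1 had a second, dimmer probe set, and the value is that of its brighter one. Bbc3, the BH3-only protein PUMA, changed by 0.11 (adjusted p = 0.536), and Bax was not analysed here. With all probe sets in the fit the count of 7 was 0. When 1 array was left out, calls were lost or gained, and the median change lay between 0.14 and 0.19.

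Of 19 activators and cofactors of p53 and 11 inhibitors, 0 passed in limma. An unadjusted p under 0.05 was reached by 5 activators, 3 with a positive and 2 with a negative change, and by 2 inhibitors, 1 in each direction, beside 2660 of the 13956 genes tested. The median changes were 0.05 over the activators and 0.08 over the inhibitors. The kinase genes Chek2 and Atm changed by 0.22 (adjusted p = 0.127) and -0.04 (adjusted p = 0.876). The inhibitor genes Mdm4, the partner of Mdm2, and Ppm1d, a phosphatase induced by p53, changed by -0.17 (adjusted p = 0.356) and 0.12 (adjusted p = 0.596). When 1 array was left out, the median lay between 0.02 and 0.09 over the activators and between 0.04 and 0.09 over the inhibitors. Calls were gained in some of these fits.

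Of 19 mitotic and cell cycle genes known to be repressed by p53 through p21 and the DREAM complex, 0 rose, 4 fell and 15 did not pass, with a median of -0.12, beside 3.37% of all genes that were lower. At an unadjusted p under 0.05 there were 0 higher and 6 lower. The mitotic genes that passed were Ect2, with a change of -0.43, the kinase gene Plk1 with -0.40, the phosphatase gene Cdc25c with -0.31 and Cdc20, an activator of the anaphase-promoting complex, with -0.30. Gtse1 and Psrc1, which are also expressed towards mitosis, moved the opposite way to these 4. The count of 4 was 2 without a filter and 0 with all probe sets in the fit. When 1 array was left out, calls were both lost and gained and the median lay between -0.18 and -0.08.

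**Figure D4:**
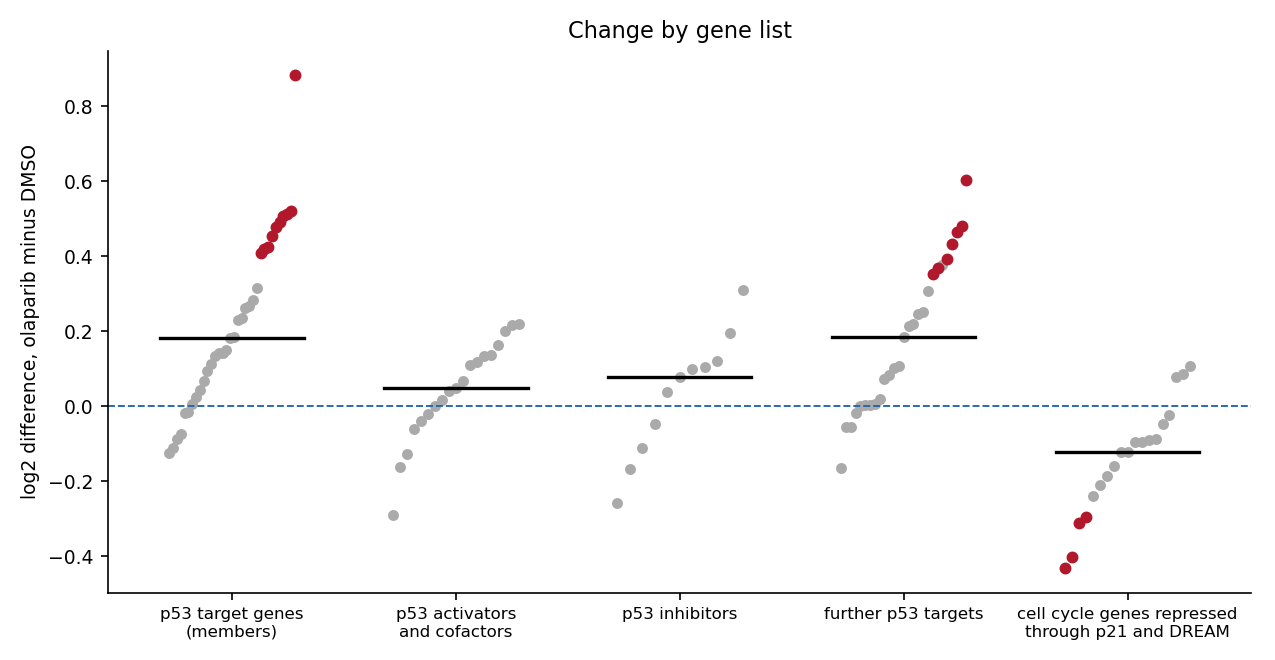
Log2 difference (olaparib minus DMSO, vertical axis) of each gene in the 34 p53 targets and the 4 other lists of the pathway, sorted within a list, with the list median as a black bar and the median of all genes tested as a dashed line. Red points passed the threshold: 10 p53 targets and 7 further targets above 0, and 4 genes of the DREAM list below 0.

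Markers of cell types differed between the groups as well. The summed linear level of 9 neuroblast markers was 1422 and 1559 with olaparib, against 1951 and 1956 with DMSO, and that of 11 neural stem cell and astrocyte markers was 21078 and 23390, against 23850 and 24813. In limma, 1 of 6 tested neuroblast markers and 2 of 11 stem cell and astrocyte markers were lower and 0 higher. Over all genes tested, 3.37% were lower and 2.84% higher. Those past the threshold were Dcx, lower by 1.05 on the log2 scale, Gfap, by 1.03, and Aqp4, by 0.71. Changes were negative in 9 of the 11 stem cell and astrocyte markers and in 7 of the 9 neuroblast markers, beside 9566 of all 19938 genes. Both olaparib arrays lay below both DMSO arrays in 6 and in 5 of these markers, as in 20.2% of all genes. Among these, Egfr (-0.38), Tubb3 (-0.32) and Dlx2 (-0.27) did not pass. Others moved little or the other way, with changes of -0.03 for Fabp7 and -0.04 for Gad1, and of 0.23 for Nes and 0.16 for Vim, whose olaparib arrays both lay above both DMSO arrays. The part of these differences in the rise of the p53 targets was not tested. The sums over 9 immune and microglial markers were 821 and 750 with olaparib and 784 and 796 with DMSO. Of 7 oligodendrocyte lineage markers, 1 passed as higher in limma, Cspg4 with a change of 0.33, and 0 as lower. Changes were negative in 4 of the 7, among them Pdgfra with -0.23, and the median of the list was -0.06. The sums over these 7 were 2815 and 3380 with olaparib and 3239 and 3353 with DMSO.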

How the data were processed

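Per the labels' protocols, 40 ng of total RNA per sample was amplified, biotin-labelled and read on 1 Affymetrix mouse gene array. The deposited table gives the authors' log2 values for each probe set and array. Their background correction, normalization and summarisation of probes are not given in the sources used here. Array medians ran from 6.60 to 6.68, and the number of arrays limits the precision.

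The platform annotation assigned 1 gene to 21640 of 34760 probe sets, several to 1321 and none to 11799, and 19855 of the 19938 genes were found in RefSeq. Where a gene had several probe sets, the brightest by mean was used. Genes whose mean exceeded the 30th percentile (6.42) entered the fit. Differences (olaparib minus DMSO) were tested two-sided with limma 3.58.1 in R 4.3.3 (lmFit, then eBayes with a trend), and p-values were adjusted by Benjamini and Hochberg's method over these 13956 genes. The fit was first run on simulated data whose variances were drawn from limma's own prior, so that run could not test the prior. Replicate numbers name arrays only.

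All targets with a probe set are named, and from each other list a few fixed genes and up to 4 past the threshold by smallest p. The targets, lists, groups of function and tests were chosen with earlier results of these data known. Alternatives covered the filter, normalization, prior, rows of the fit, thresholds and arrays left out. Python 3.11.15 and matplotlib 3.10.9 drew the figures.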

Additional observations from a re-analysis of the deposited data

How the results depend on the processing

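All 10 risen targets kept a positive change under the 15 alternatives that refitted the table, but not always the call. The number of risen targets was 10 as reported, 8 without a filter, 7 under median centring, 11 under quantile normalization or cyclic loess and 0 with all 21704 probe sets in the fit. Leaving out 1 array gave 4 to 18 higher and 0 to 1 lower targets, and a median change of 0.17 to 0.29. Over the single targets, a call was lost in 28 and gained in 11 of 490 values. Over all genes, 397 were higher and 471 lower as reported, 1 and 11 with all probe sets in the fit, 606 and 715 at an adjusted p of 0.1, and 249 and 273 with a fold of at least 1.3. Without a filter 257 were higher, and quantile normalization gave 779 and cyclic loess 732 lower. With 1 array left out there were 97 to 1274 higher and 161 to 1032 lower. Such a fit leaves a group with 1 array, assumed to vary like the other group. With all probe sets the prior on the variance was worth 5.25 degrees of freedom, against 18.1 as reported, and the cause of the lost calls was not tested. Background correction could not be repeated, and changes of targets near a log2 value of 6.4 carry little signal over background. No paired analysis was possible because the labels pair no arrays.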
